A study of Mus musculus with 9 samples.

Results

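The imprinted growth-control genes are genes expressed from the copy inherited from 1 parent that act on growth and on cell division. They were followed through the development of the olfactory bulb, where axons from the nose first meet the brain. The 9 listed genes were H19, Peg3, Dlk1, Meg3, Mest, Plagl1, Ndn, Grb10 and Cdkn1c, and a probe set was taken where its only annotated gene symbol was one of these. This gave 34 probe sets of 8 genes, out of 18193 genes with a probe set of their own on the array. The remaining gene, H19, had no such probe set, since its probe set also carries the name Mir675. Of the 34 probe sets, 26 reached log2 5 on 2 or more arrays, the filter on low values used here, and they belonged to 7 genes. Dlk1 did not pass it and has no place in the counts of genes that rose or fell.

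All samples were bulbs of CD1 mice, an outbred stock, dissected on every embryonic day (E) between E11 and E18 and on the day of birth (P0), and the labels name no treatment or mutation. Each of the 9 ages had 1 array, made with the bulbs of 1 individual per the series' design text. No age had a replicate, so the p-values measure only how far 9 single animals scatter about a trend. Whole dissected tissue was measured, and in such bulk samples fewer cells of a type and less RNA per cell cannot be told apart.

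Imprinted genes lie in clusters whose parental copies carry different DNA methylation at a control region. In the common view, many paternally expressed genes promote growth of the embryo and many maternally expressed genes restrain it. Dlk1 and Meg3 share a cluster, and so do H19 and Igf2, with the partners expressed from opposite parental copies. Work in mice placed several of these genes in a network of co-expressed imprinted genes in which the factor Plagl1 regulates others.

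Levels are log2 values per probe set, and a slope is the change in log2 level per day in a linear fit over the 9 ages, with P0 placed at day 19. Levels of different genes were not compared with each other as amounts of RNA. The difference of Dlk1 and Meg3 was used only for its slope on age. Summed marker levels add linear values of different probe sets, so the strongest probe sets weigh most in them. On the same arrays the median level over all probe sets lay between 4.08 and 4.23. Several markers differed between the ages. The summed level of the 8 measured red cell genes was 16.27 at E11, 15.73 at E12, 15.05 at E13 and 14.52 at E14. It dropped most to E15 (11.64) and E16 (9.15), and the lowest value, 7.70, was at P0. Most of the sum at E11 came from the embryonic globin genes Hbb-y (15.52), Hbb-bh1 (14.26) and Hba-x (13.19). These read 2.90, 3.02 and 2.59 at P0, and Hbb-y read 11.37 at E15. Alas2, another gene of the list, did not pass (slope -0.10, adjusted p = 0.306, limma). It read 9.46 at E11, 7.56 at E13, 8.43 at E18 and 6.94 at P0. Whether the sum follows the number of red cells was not tested. The summed level of the 15 neuronal markers was highest at P0 (16.62) and lowest at E11 (15.25). Xist, a noncoding RNA of female cells, was at 13.42 or more on 4 arrays, those of E11, E12, E15 and P0, and at most 2.76 on the rest. E11 was the highest of the 9 arrays for 4 of the 7 tested members, against 27.5% of the 10864 genes tested, and the lowest for 1, against 24.5%. Together these were 5 of 7, against 51.9%. The results are given for E11 to P0 and for E13 to P0 as well.

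Of the 7 tested members, Mest, Grb10 and Plagl1 fell with age, Meg3 rose, and Cdkn1c, Ndn and Peg3 did not pass the test. The count was 3 falling and 1 rising at an adjusted p of 0.05 from limma, against 21.9% of all genes tested that fell and 25.2% that rose. In either direction this was 4 of 7, against 47.2%. The median slope of the 7 members was -0.022, and that of all genes tested was 0.0020. Between E13 and P0, 2 members fell (Mest and Grb10) against 11.2% of all genes. Over these ages 1 member rose, and it was Cdkn1c and not Meg3, against 14.0% of all genes. No gene of the 7 passed for a peak or dip by limma's quadratic term, against 6.77% of all genes, and 2 of 7, Cdkn1c and Ndn, had an unadjusted p under 0.05 there, against 22.1% of all genes.

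**Figure D1:**
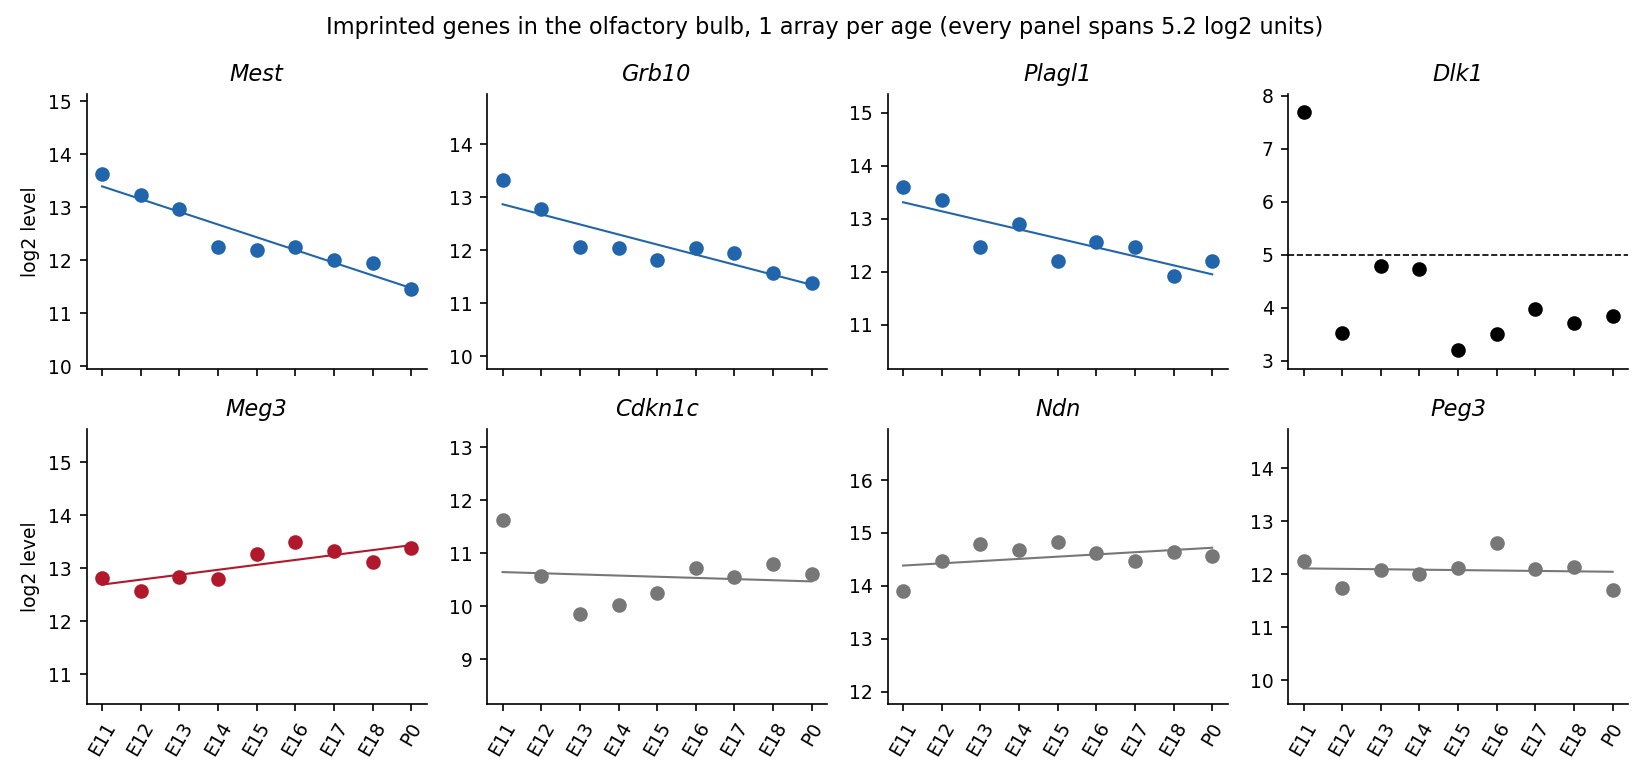
Log2 level (vertical axis, every panel spanning the same number of units) of 8 imprinted genes on the 9 arrays (horizontal axis, E11 to P0). Each point is 1 array and lines are the fitted slopes, in blue for genes that fell, red for the gene that rose and grey for genes that did not pass. Mest, Grb10 and Plagl1 are highest at E11, and Dlk1 lies above the dashed line at log2 5 at E11 only (7.69).

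The sequences before the starts of the 3 falling genes and of Meg3 are shown with their CG dinucleotides, since imprinting is marked by differential CG methylation at control regions. Whether any of these windows lies in such a region was not examined. RefSeq promoter windows of 300 bases (GRCm38.p6, from 250 bases before to 50 after a start) were found for 7 of the 9 genes, 11 windows in all. Capitals mark CG in each sequence, written 5′ to 3′ on the gene's strand.
Plagl1, chr10:13090582-13090881, plus strand: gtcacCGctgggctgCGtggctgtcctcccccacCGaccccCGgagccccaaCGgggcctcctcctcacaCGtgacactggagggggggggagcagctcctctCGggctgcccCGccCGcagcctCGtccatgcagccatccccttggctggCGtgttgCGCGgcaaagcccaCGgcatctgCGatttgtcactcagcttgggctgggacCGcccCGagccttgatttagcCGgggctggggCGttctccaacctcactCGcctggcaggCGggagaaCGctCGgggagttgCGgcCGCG
Grb10, chr11:12037371-12037670, minus strand: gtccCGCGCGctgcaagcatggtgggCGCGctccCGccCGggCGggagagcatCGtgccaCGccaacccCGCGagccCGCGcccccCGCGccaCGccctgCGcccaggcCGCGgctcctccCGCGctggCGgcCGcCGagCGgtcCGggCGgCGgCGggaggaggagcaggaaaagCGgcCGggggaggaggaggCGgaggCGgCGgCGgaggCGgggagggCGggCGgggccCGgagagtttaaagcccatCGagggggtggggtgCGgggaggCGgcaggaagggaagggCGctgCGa
Mest, chr6:30737800-30738099, plus strand: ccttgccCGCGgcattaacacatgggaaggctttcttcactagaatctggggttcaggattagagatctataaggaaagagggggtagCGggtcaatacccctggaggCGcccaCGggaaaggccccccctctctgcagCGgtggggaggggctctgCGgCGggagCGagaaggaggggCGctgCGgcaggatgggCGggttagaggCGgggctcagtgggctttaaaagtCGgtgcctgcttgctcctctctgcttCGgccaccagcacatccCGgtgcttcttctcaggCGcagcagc
Meg3, chr12:109540746-109541045, plus strand: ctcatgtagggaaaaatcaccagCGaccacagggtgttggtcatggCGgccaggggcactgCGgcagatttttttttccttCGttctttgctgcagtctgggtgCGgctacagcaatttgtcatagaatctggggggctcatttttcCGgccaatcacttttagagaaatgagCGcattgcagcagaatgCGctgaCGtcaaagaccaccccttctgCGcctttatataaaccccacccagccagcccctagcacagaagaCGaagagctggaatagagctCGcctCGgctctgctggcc
The Grb10 window held 45 CG, a number that 1.93% of the 32851 RefSeq promoter windows of this length reached. The Plagl1 window held 26 (16.9% of windows), the Mest window 17 (31.4%) and the Meg3 window 13 (37.9%), and the median over all windows was 7. Genes with other starts had other numbers: a second Grb10 window held 9 CG and a second Meg3 window 1, and of 2 further Mest windows one held 8 and one, shifted by 3 bases, 17. The letters GGGGCCCC, a motif that PLAGL1 binds and that reads the same on both strands, were in 1 of the 11 windows, that of Peg3. They were in 1.08% of all windows. Methylation was not measured on these arrays.

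Mest, a paternally expressed gene of an enzyme of the alpha/beta hydrolase fold whose loss slows the growth of mouse embryos, fell. Its 1 probe set read 13.63, 13.22, 12.96, 12.24, 12.19, 12.24, 12.00, 11.95 and 11.46 from E11 to P0. The first 3 ages lay above all later ones, and P0 was the lowest. The slope was -0.24 ± 0.027 (standard error, n = 9 arrays, adjusted p = 9.44e-05, limma), and the level at P0 was 4.50-fold lower than at E11. The call held from E13 to P0 (slope -0.19 ± 0.035, adjusted p = 0.00504) and under all 23 alternatives tried, where the adjusted p was at most 0.00504.

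Grb10, an adaptor protein that binds the insulin and IGF1 receptors and restrains their signal, is expressed from the maternal copy in most tissues and from the paternal copy in neurons. Its strongest probe set read 13.33, 12.78, 12.05, 12.03, 11.82, 12.03, 11.95, 11.57 and 11.38 from E11 to P0. E11 and E12 lay above all later ages, the arrays from E13 to E17 lay within 11.82 and 12.05, and E18 and P0 were the lowest. The slope was -0.19 ± 0.034 (adjusted p = 0.00120), and the level was 3.87-fold lower at P0 than at E11. From E13 to P0 the slope was -0.10 ± 0.030 (adjusted p = 0.0356 among genes). The other 2 Grb10 probe sets were also highest at E11, at 6.80 and 6.32, and read at most 5.64 and 5.11 from E12 on. One of these fell in the fit of every probe set that passed the filter (slope -0.16, adjusted p = 0.0306), but not with E11 left out (adjusted p = 0.174), and the other did not pass (-0.13, adjusted p = 0.0784).

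Plagl1, also called Zac1, is a paternally expressed zinc finger factor that can arrest the cell cycle. The probe set used for the gene read 13.60, 13.36, 12.47, 12.90, 12.20, 12.56, 12.46, 11.93 and 12.21 from E11 to P0. E11 and E12 were the highest, and the arrays from E13 on went up and down between 11.93 and 12.90. Its probes, like those used for Meg3 and Ndn, are of a kind that can match several transcripts, and the call held with such probe sets left out. The slope was -0.17 ± 0.036 (adjusted p = 0.00323), with a level at P0 2.63-fold lower than at E11. The call ended from E13 to P0 (slope -0.088, adjusted p = 0.154). A second Plagl1 probe set read 7.69 at E11, 7.42 at E12 and under 5 at E18 and P0 (4.79 and 4.64). It had a steeper slope, -0.37 ± 0.044 (adjusted p = 1.40e-04), and fell from E13 to P0 as well (slope -0.31 ± 0.062, adjusted p = 0.00919), so that the 2 probe sets of the gene differ over these ages in their call. The third read at most 2.26 except for 4.41 at E11. Over all members, 5 of the 26 probe sets tested fell, against 23.7% of all probe sets.

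Markers of dividing cells, and most markers of progenitors, fell over the same ages. The summed level of 13 measured cell cycle markers was 12.78 at P0, its lowest value, and 15.81 at E11, its highest, and all 13 fell. The summed level of 13 radial glia and progenitor markers changed little, between 15.79 and 16.15, and 11 of 13 fell and 2 rose. The 2 that rose were Fabp7, at 14.46 at E11 and 15.34 at P0, and Slc1a3. The median level of this list was 11.37 at E11 and 9.46 at P0. None of either list was under log2 5 on every array. The part of these cells in the fall of Mest, Grb10 and Plagl1 was not tested.

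Dlk1 encodes a membrane protein related to the Notch ligands and is expressed from the paternal copy. It was above the filter level on 1 array. Its stronger probe set read 7.69, 3.52, 4.79, 4.73, 3.20, 3.50, 3.98, 3.71 and 3.84 from E11 to P0, and the other lay between 2.11 and 2.29. Against log2 5, the level at P0 was at least 6.43-fold lower than at E11. In a fit with no filter on low values its slope, -0.29 ± 0.13, missed the threshold (adjusted p = 0.150). The summed level of the 20 markers of meninges and mesenchyme was 13.91 at E11, 13.51 at E12 and 12.95 at E13. It was higher again later, with 15.45 at E18. The sum hides a split in this list, in which 13 markers had a rising call by limma. Falling calls were those of Igfbp2 (12.01 at E11, 11.29 at P0) and Crabp2 (11.64 and 8.68). Prrx1, among the 4 without a call, read 9.50 at E11 and 7.52 at P0. Igfbp2, Crabp2 and Prrx1 each had their highest value at E11, the age of the highest Dlk1 reading. Markers of skeletal muscle, a tissue with much Dlk1, were under 5 on every array for 10 of 12 measured genes, Myog, Myod1 and Myf5 among them. The summed level of the 8 measured markers of choroid plexus, which also forms beside the forebrain, was 9.62 at P0 and 9.93 at E11, and 4 of the 8 were under 5 throughout. The E11 sum came almost wholly from Otx2 (9.86), a factor of the early forebrain as well, while Ttr, Clic6 and Aqp1 read 4.13, 2.44 and 2.13 at E11 and rose with age. The part of other tissues in the E11 reading of Dlk1 was not tested.

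Meg3, the long noncoding RNA of the maternal copy of the Dlk1 cluster, rose, and its probe sets differed widely in how much. The probe set used for the gene read 12.81, 12.57, 12.83, 12.79, 13.27, 13.49, 13.32, 13.11 and 13.38 from E11 to P0. The 4 ages up to E14 lay below the 5 later ones. The slope was 0.093 ± 0.025 (adjusted p = 0.0112), with a level 1.48-fold higher at P0 than at E11. This call ended from E13 to P0 (slope 0.084, adjusted p = 0.114) and by exact rank correlation (rho 0.75, adjusted p = 0.0611).

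Of the 11 Meg3 probe sets, all of which passed the filter, 10 rose and 1 did not pass (slope 0.073) in the fit of every probe set, against 20.7% rising among the 21724 probe sets tested. These share 1 gene and are not replicates. Their slopes ran up to 0.40, found for 2 of them. One of these (0.40 ± 0.061, adjusted p = 5.93e-04) read 6.39, 6.83, 7.95, 8.06, 9.09, 9.51, 9.63, 8.95 and 9.67 from E11 to P0 and was 9.66-fold higher at P0 than at E11. For 7 of the 11, E11 was the lowest array, whereas the probe set used for the gene was lowest at E12. The 3 probe sets designed from the same source sequence had slopes of 0.18, 0.33 and 0.40. Over E13 to P0, 2 of the 11 passed, with slopes of 0.27 (adjusted p = 0.0298) and 0.21 (adjusted p = 0.0397). With the mean of all its probe sets, Meg3 passed for a peak by the quadratic term (adjusted p = 0.0387).

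**Figure D2:**
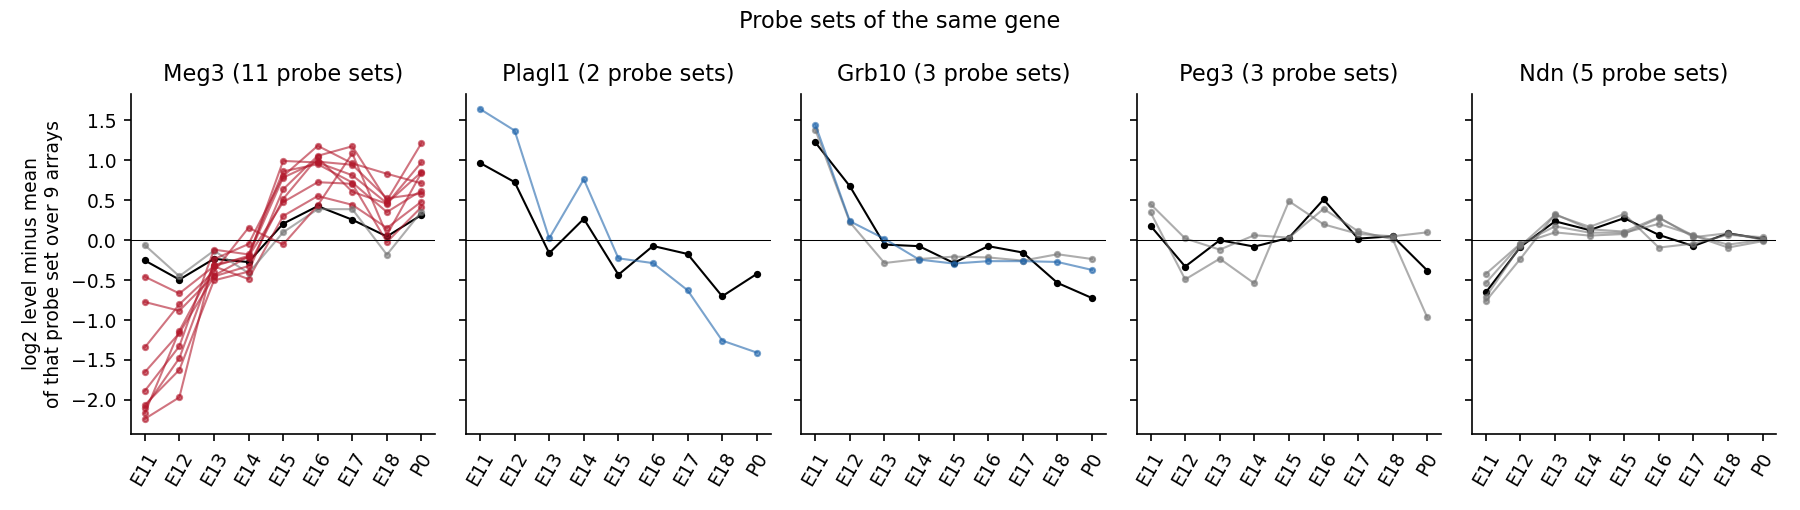
Log2 level of each probe set minus its own mean over the 9 arrays (vertical axis) against age (horizontal axis) for the 5 members with several probe sets past the filter. Each line is 1 probe set, black for the one used for the gene, otherwise red where it rose, blue where it fell and grey where it did not pass. The 11 Meg3 lines climb by different amounts, and the 5 Ndn lines are lowest at E11 and run close together.

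The 15 neuronal markers, of which 10 rose and 1 fell, had a summed level of 16.62 at P0, against 15.25 at E11, beside this rise, and the part of neurons in it was not tested. For the difference between Dlk1 and Meg3, the stronger Dlk1 probe set and the Meg3 probe set used for the gene (slope 0.093) were taken. Other Meg3 probe sets, with slopes up to 0.40, were not tried in it. This difference had a slope of -0.39 log2 units per day (exact permutation test over all orders of the 9 ages, two-sided, p = 0.0242). Dlk1 was under log2 5 on 8 arrays, and with values under 5 set to 5 the slope was -0.27 (exact permutation p = 0.00281). Dlk1 was then constant on these 8 arrays, so this p rests on the course of Meg3 and on the 1 Dlk1 reading at E11. Without that floor, the difference no longer passed without the E11 array (slope -0.17, exact permutation p = 0.185) or from E13 to P0 (-0.23, exact permutation p = 0.169).

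H19, the noncoding RNA of the maternal copy of the Igf2 cluster, shared its probe set with Mir675, a microRNA cut from the H19 transcript, and cannot be named from it alone. The probe set with both names read 11.78, 10.82, 11.12, 11.78, 12.26, 12.78, 12.69, 12.53 and 12.61 from E11 to P0. E12 was the lowest array, and the arrays from E15 on were all above E11. It rose in the fit of every probe set (slope 0.21 ± 0.049, adjusted p = 0.00656) and was 1.77-fold higher at P0 than at E11. Igf2, a growth factor expressed from the paternal copy in most tissues, had its highest value at P0, 12.21, against 9.75 at E11. Its slope was 0.43 ± 0.054 (adjusted p = 1.79e-04). On the same arrays the summed level of the 20 markers of meninges and mesenchyme, cells that express Igf2 in the brain coverings, was lowest at E13 (12.95) and highest at E18 (15.45). Twist1 was the 1 marker of the 20 under log2 5 throughout, and the part of these cells in either rise was not tested.

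Cdkn1c encodes p57, a maternally expressed inhibitor of cyclin-dependent kinases that lets cells leave the cycle. Its 1 probe set read 11.63, 10.57, 9.86, 10.03, 10.24, 10.72, 10.55, 10.79 and 10.60 from E11 to P0. E11 was the highest, the level was lowest at E13, and the arrays from E16 on lay above those from E13 to E15. Over all ages the slope was -0.022 ± 0.059 (adjusted p = 0.787). From E13 to P0 it was 0.15, of the opposite sign, and passed (adjusted p = 0.0151), and without the E11 array alone it was 0.083 (adjusted p = 0.128). Its quadratic term had an adjusted p of 0.134 by limma. Among the probe sets used for the 7 tested members, it was the 1 with a step of 2-fold or more between consecutive ages, with E12 minus E11 at -1.06, against 21.5% of all genes with such a step.

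Of the relatives of Cdkn1c, Cdkn1a, which encodes the inhibitor p21, rose (slope 0.32 ± 0.053, adjusted p = 8.69e-04) and read 9.68 at P0, against 7.55 at E11. Cdkn1b, which encodes p27, had a slope of -0.011 (adjusted p = 0.819). Over the same ages Ccnd1, which encodes the cyclin D1 that drives entry into the cycle, fell (-0.41 ± 0.051, adjusted p = 1.76e-04).

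Ndn and Peg3 had no linear call on any probe set that passed. Ndn encodes necdin, a paternally expressed protein of the MAGE family that is abundant in postmitotic neurons. The probe set used for it read 13.90, 14.47, 14.79, 14.68, 14.83, 14.62, 14.48, 14.64 and 14.57 from E11 to P0. E11 was the lowest array on all 5 Ndn probe sets that passed, and the arrays from E13 on lay within 14.48 and 14.83 on this one. The slope was 0.042 ± 0.029 (adjusted p = 0.268), without the E11 array it was -0.010 (adjusted p = 0.721), and from E13 to P0 -0.039 (adjusted p = 0.169). For the quadratic term limma gave an adjusted p of 0.0783. The 3 further Ndn probe sets read at most 2.09 on every array.

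Peg3, a large paternally expressed zinc finger protein known from growth and maternal behaviour in mice, stayed between 11.70 at P0 and 12.59 at E16 on the probe set used for it. The slope was -0.0079 ± 0.032 (adjusted p = 0.858). The other 2 probe sets that passed had slopes of 0.033 and -0.082 (adjusted p = 0.543 and 0.159), and a pair of further ones read at most 2.23 on every array. The scatter around the line was 0.281 log2 units for Peg3 and 0.544 for Cdkn1c, against a median of 0.241 over all genes tested.

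**Figure D3:**
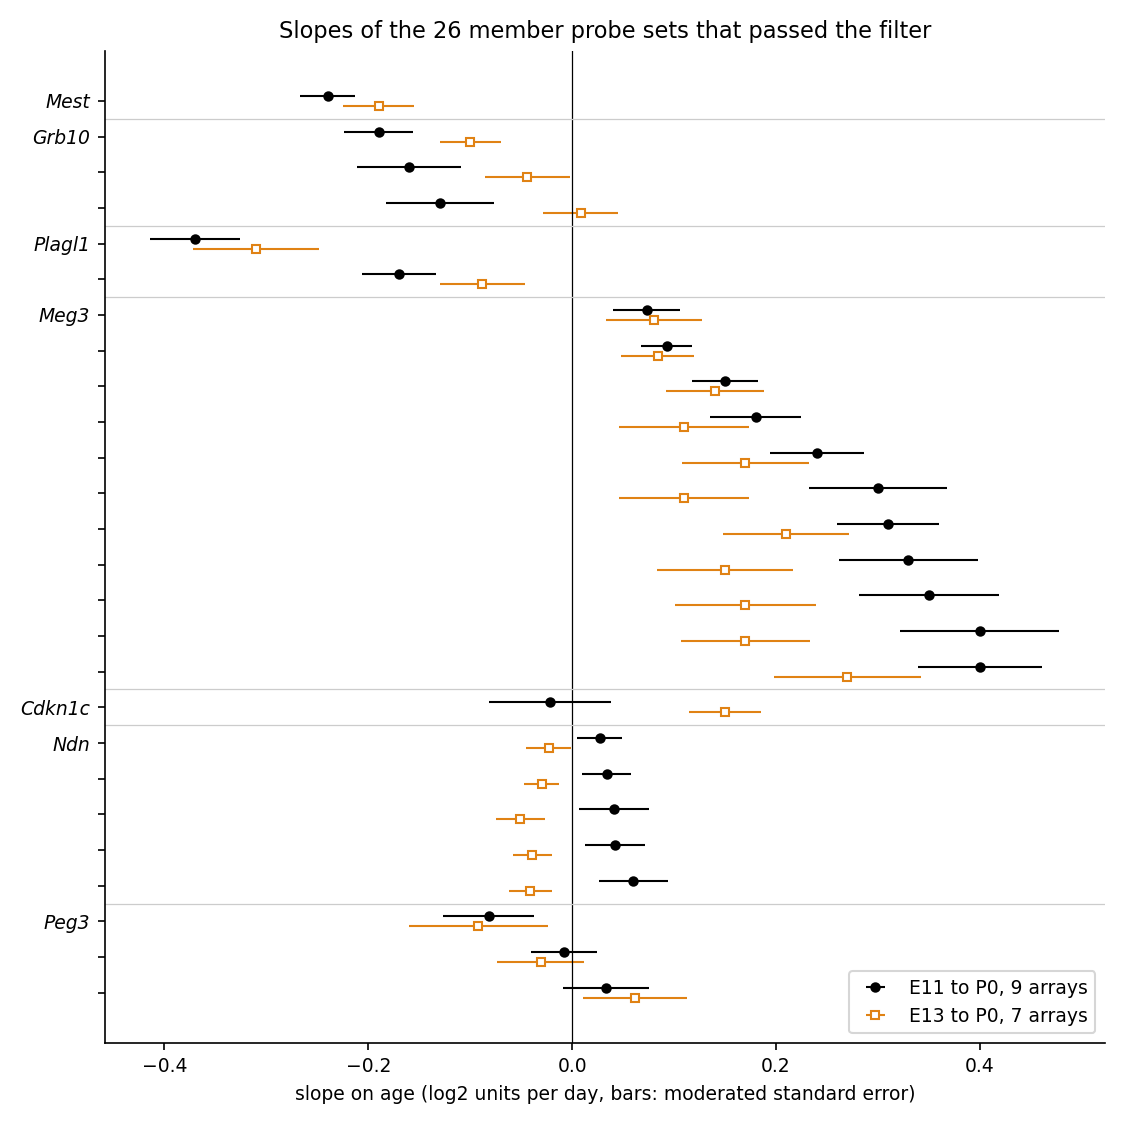
Slope on age in log2 units per day (horizontal axis) of the 26 member probe sets that passed the filter, grouped by gene from top to bottom. Black circles are the fit from E11 to P0 (9 arrays), open orange squares the fit from E13 to P0 (7 arrays), and bars the moderated standard error. Cdkn1c, the 5 Ndn probe sets and 1 of Grb10 change sign between the fits, and the Meg3 slopes spread from 0.073 to 0.40.

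The genes whose course was most like that of a member were found by Pearson's r over the 9 arrays among all genes tested, leaving out clone and predicted names. These are the best of many, and shared age trends enter them, so they are given as a description. Mest was closest to Plagl2, a zinc finger factor of the same family as Plagl1 (r = 0.991), followed by the splicing factor Eftud2 (0.988) and the kinesin Kif24 (0.986). Grb10 was closest to Cep89 (0.988), a centrosome protein, Oip5 (0.987), a centromere protein, and Mpdz (0.985), a scaffold with PDZ domains. For Plagl1 the closest were Cbx1 (0.982), a heterochromatin protein, Lrrc40 (0.978) and Mccc1 (0.978), a subunit of a carboxylase of leucine breakdown. For Meg3 they were Fam184a (0.981), Tmem267 (0.975) and the mitochondrial adenylate kinase Ak3 (0.973).

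Among members with no call, Ndn was closest to Vash2 (0.972), a tubulin carboxypeptidase, the growth factor-responsive factor Myc (0.966) and the RNA-binding protein Celf5 (0.963). Myc read 8.55 at E13, against 6.21 at E11, a difference of the same direction as that of Ndn. Cdkn1c was closest to Nqo2 (0.952), a quinone reductase, Creg1 (0.951) and the collagen hydroxylase Plod2 (0.941), all 3 of which were lower at E13 than at E11. Peg3 was closest to the helicase gene Fbh1 (0.924), Zfp638 (0.914) and Elmo2 (0.910).

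Plagl1 was set against genes reported as its targets in mice, and Dlk1 against Meg3, 4 pairs in all. Each gene entered with the probe set used for it, and Dlk1 with its stronger one. Plagl1 and Igf2 ran in opposite directions (r = -0.743, exact permutation p = 0.0231, rho = -0.717, exact permutation p = 0.0369, n = 9 arrays), but the adjusted p over the 4 pairs was 0.0924 for r and 0.147 for rho. Without E11 and E12, the arrays farthest from the median of Plagl1, r was -0.569, and for the residuals from the age trend it was 0.207. For Plagl1 and Cdkn1c r was 0.419 (exact permutation p = 0.265, adjusted p = 0.265) and rho 0.083 (exact permutation p = 0.843, adjusted p = 0.843), and r without these 2 arrays was -0.528. For Plagl1 and Dlk1 r was 0.651 (exact permutation p = 0.0512, adjusted p = 0.102) and rho 0.433 (exact permutation p = 0.250, adjusted p = 0.417), and r without them was 0.591. For Dlk1 and Meg3 r was -0.427 (exact permutation p = 0.258, adjusted p = 0.265) and rho -0.383 (exact permutation p = 0.312, adjusted p = 0.417), and r without E11 and E13 was -0.311. For the residuals from the age trend these 3 pairs gave r of 0.598, 0.356 and 0.075. Dlk1 was under log2 5 on 8 of the 9 arrays, so both pairs with Dlk1 rest on readings below the filter and on E11. No pair passed after adjustment.

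Other imprinted genes went both ways. Of 57 listed, 36 were tested, and 12 rose, 8 fell and 16 did not pass, with a median slope of 0.019. Among all genes 25.2% rose and 21.9% fell, so the falling count is near the share of all genes. The median slope of all genes tested was 0.0020. Without the first 2 ages, 5 rose and 4 fell, against 14.0% and 11.2% of all genes. The steepest rises were those of Rasgrf1, an activator of Ras in neurons (0.73 ± 0.076, adjusted p = 6.13e-05), Igf2, the Polycomb protein Sfmbt2 (0.42), Nap1l5, a relative of nucleosome assembly proteins (0.39), the actin regulator Cobl (0.37) and the amino acid transporter Slc38a4 (0.31). The calls of Sfmbt2 (adjusted p = 0.0851), Cobl (0.666) and Slc38a4 (0.0713) ended from E13 to P0. That of Cobl also ended without E11 or E12, and that of Slc38a4 without E12 or E18 (highest adjusted p = 0.114 and 0.0651). Peg12, a protein that binds the kinase GSK3 (-0.47 ± 0.053, adjusted p = 9.36e-05), and Asb4, a part of ubiquitin ligases (-0.43 ± 0.082, adjusted p = 0.00191), fell most. Igf2r, the receptor that clears Igf2 (-0.19), the noncoding RNA Kcnq1ot1 (-0.19), Zdbf2 (-0.17) and Magel2 (-0.17) followed, and from E13 to P0 the calls of Asb4 (adjusted p = 0.0790), Kcnq1ot1 (0.0643) and Zdbf2 (0.104) ended. Some of these slopes include readings under log2 5, so their size is uncertain. Rasgrf1, Sfmbt2 and Cobl read 3.95, 3.41 and 2.95 at E11 and 4.13, 3.61 and 2.87 at E12. Peg12 read 4.03 at E18 and 4.08 at P0, Asb4 4.71 at E18 and Slc38a4 4.56 at E13. The other genes named here stayed above 5.

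**Figure D4:**
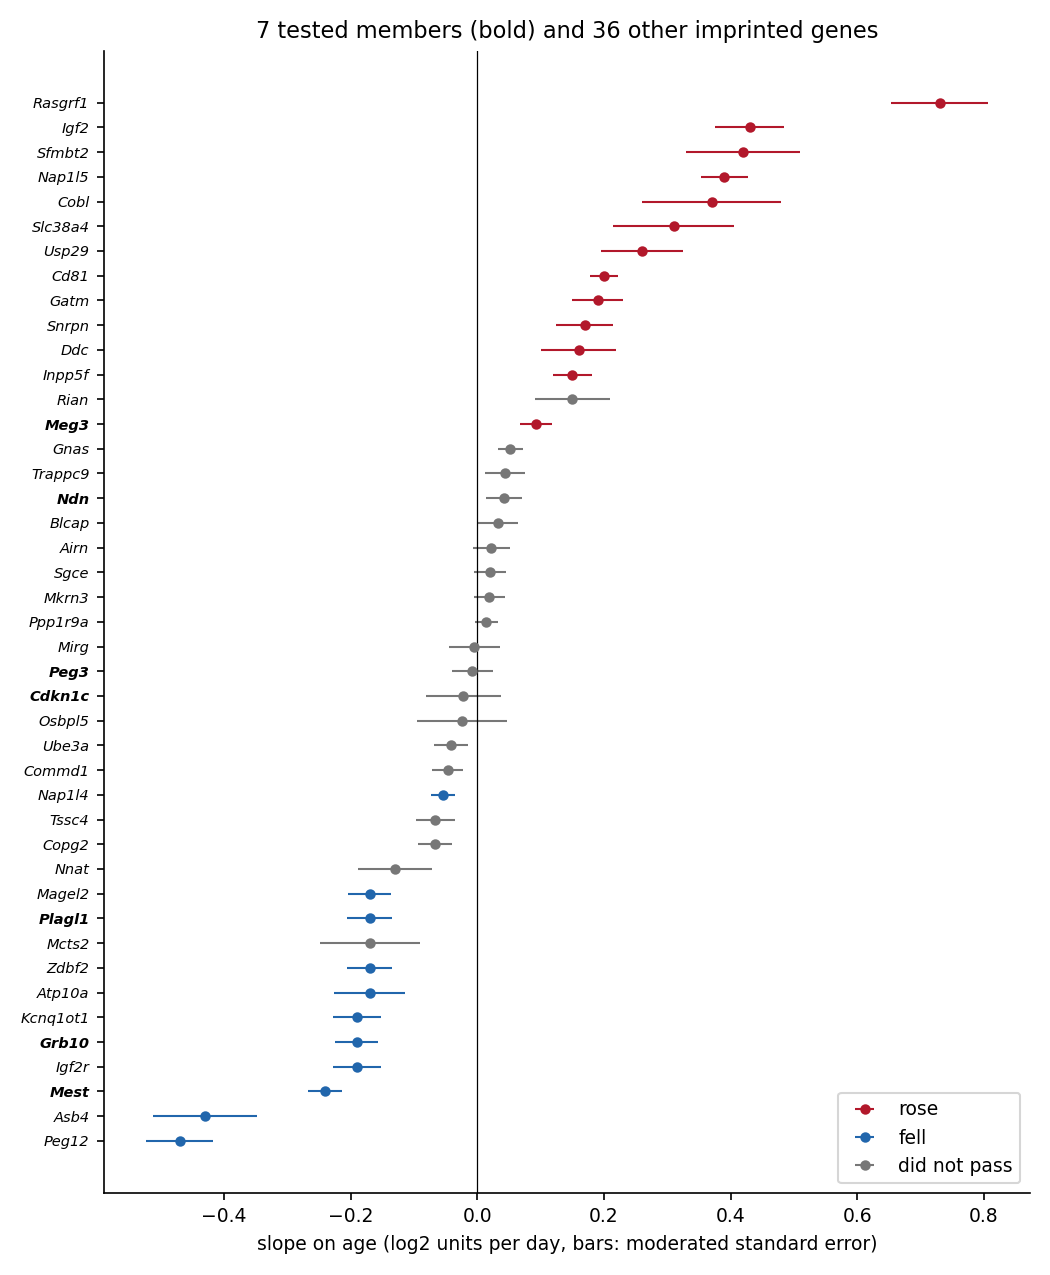
Slope on age in log2 units per day (horizontal axis, bars are the moderated standard error, 9 arrays) of the 7 tested members, in bold, and 36 other imprinted genes, sorted by slope. Red genes rose, blue genes fell and grey genes did not pass. Mest, Grb10 and Plagl1 lie among the falling genes, with Peg12 (-0.47) and Asb4 (-0.43) below them and Rasgrf1 (0.73) at the top.

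Genes of the members' own clusters did not share one direction. Beside Meg3, the noncoding RNA Rian had a slope of 0.15 (adjusted p = 0.0615, passing without the E18 array at 0.0222) and Mirg of -0.0046 (adjusted p = 0.936). Beside Ndn, Magel2 and Peg12 fell, while Snrpn, a protein of the splicing machinery, rose (0.17 ± 0.045, adjusted p = 0.0113), a call that ended from E13 to P0 (adjusted p = 0.186). Snrpn was low throughout, with 4.51 at E11 and 6.33 at P0. Atp10a, a lipid transporter, fell (-0.17, adjusted p = 0.0282), but not without E11, E12 or E17 (highest adjusted p = 0.160) or from E13 to P0 (0.851). Atp10a read 6.12 at E11 and 5.93 at E12, and was under log2 5 on all later arrays (at most 4.79). The ubiquitin ligases Mkrn3 (0.019, adjusted p = 0.546) and Ube3a (-0.042, adjusted p = 0.232) did not pass. Beside Peg3, Usp29, a ubiquitin protease, rose (0.26 ± 0.065, adjusted p = 0.00748), a call that ended from E13 to P0 (adjusted p = 0.298). Beside Grb10, Cobl and Ddc (0.16, adjusted p = 0.0435) rose, and the Ddc call ended without any one of the arrays from E12 to E18 (highest adjusted p = 0.137) and from E13 to P0 (0.0833). Ddc was above log2 5 only at E16, E17 and E18, with 5.77 at most. Beside Mest, Copg2 had a slope of -0.067 (adjusted p = 0.0636, passing without E16 at 0.0474). Beside Cdkn1c, Cd81 rose (0.20, adjusted p = 8.18e-05), while Kcnq1ot1 and Nap1l4 (-0.054, adjusted p = 0.0435) fell. The Nap1l4 call ended from E13 to P0 (adjusted p = 0.105) and without E11, E13, E15, E17, E18 or P0 (highest adjusted p = 0.158). Tssc4 (-0.066, adjusted p = 0.107) and Osbpl5 (-0.024, adjusted p = 0.808) did not pass, although Tssc4 passed without P0 (adjusted p = 0.0228).

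Among 24 tested relatives and partners of the members, 7 rose and 9 fell, against 25.2% and 21.9% of all genes, with a median slope of -0.011. Without the E11 array 4 rose, and from E13 to P0 3 rose. Grb14, an adaptor of the same family as Grb10, rose (0.41 ± 0.071, adjusted p = 0.00109) and read 9.90 at P0, against 6.30 at E11. Dlk2, the relative of Dlk1, rose too (0.40 ± 0.12, adjusted p = 0.0211), with 7.66 at P0, against 3.21 at E11. Leaving out E11 ended the Dlk2 call (adjusted p = 0.0880), as did leaving out E11 and E12 together (0.587). Plagl2 fell (-0.35 ± 0.042, adjusted p = 1.35e-04), in the same direction as Plagl1, and read 5.53 at P0, against 8.60 at E11. E2f1, a cell cycle factor that necdin binds, fell as well (-0.35 ± 0.059, adjusted p = 8.69e-04). The receptor genes Insr (-0.052, adjusted p = 0.123) and Igf1r (-0.051, adjusted p = 0.390), whose signal Grb10 restrains, did not pass, although from E13 to P0 Igf1r fell (-0.17 ± 0.047, adjusted p = 0.0289). Plag1 and Grb7, the remaining close relatives of Plagl1 and Grb10, were under log2 5 on every array.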

How the data were processed

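Bulb RNA from CD1 mice went through 2 amplification rounds and biotin labelling before hybridisation, 1 Affymetrix array of 1 individual per age, per the labels' protocols and the series' design text. The authors deposited log2 levels of 45101 probe sets, and the submitters' processing notes name GCRMA, with no version. That the scale is log2 was read from the range of the values. No scaling was added. Precision is limited by there being 9 arrays. Of the probe sets, 34958 carried 1 gene name, 932 several and 9211 none, and 34754 were matched by Entrez ID to RefSeq (GRCm38.p6) with 0 symbols changed.

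Probe sets at log2 5 or more on at least 2 arrays were kept (21724), and per gene the one with the highest mean among those with exactly 1 name (10864 genes). Slopes on age, with P0 at day 19, were fitted with limma 3.58.1 in R 4.3.3 (moderated variance with a trend, two-sided, Benjamini-Hochberg over all genes, threshold 0.05). A second fit took every probe set that passed. The fits were also run on simulated data with independent scatter on every array. Such data do not cover an array that deviates for many genes together. Differences and correlations of pairs were tested by exact permutation (scipy 1.17.1). Summed marker levels are log2 of the sum of linear values. Folds set values under log2 5 to 5. Alternatives covered the filter, scaling, probe set choice, age of P0, sex, test and arrays used.

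Named genes were all members, Igf2, the 3 genes most like each member, the steepest 6 rising and 6 falling of the imprinted list with genes of the members' clusters, and the steepest 3 of each direction and the closest relatives in the lists of partners and of imprint maintenance. Insr, Igf1r, Myog, Myod1, Myf5, Twist1, Otx2, Ttr, Clic6 and Aqp1 were named outside this rule, after their values were seen. So were the markers Hbb-y, Hbb-bh1, Hba-x, Alas2, Fabp7, Slc1a3, Igfbp2, Crabp2 and Prrx1. In the imprint maintenance list this holds for Zfp57, Zfp445, Smchd1, Arid4a and Ehmt2. The plan named list medians for the markers, and most are given here as summed levels. Members and lists were chosen with earlier results of these data known.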

Additional observations from a re-analysis of the deposited data

How the results depend on the processing

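Mest, Grb10 and Plagl1 fell and Meg3 rose under 21 of the 23 alternatives (other filters, scaling, probe sets, age of P0, variance model, Xist as a covariate, windows of 3 ages, each array left out). The exceptions were exact rank correlation, where 0 members rose, and E13 to P0. In the fit of E13 to P0, where Meg3 and Plagl1 did not pass, 1525 of all genes rose and 1219 fell. In the fit of E11 to P0, 2743 of all genes rose and 2382 fell. With each array of that fit left out in turn, its counts lay between 2218 and 2764 and between 1803 and 2335. The members counted 1 rising and 3 falling without any one array, and 0 with a peak or dip. With the mean of a gene's probe sets, 1 member passed for a peak or dip. Of the 26 member probe sets, 10 rose and 5 fell. Without E11, 10 rose and 4 fell, and from E13 to P0, 3 rose and 3 fell. For the probe sets and for the next 3 lists, the fits without E11 and from E13 to P0 were added after seeing the data. Other imprinted genes gave 5 rising and 4 falling from E13 to P0, and 11 and 6 without E11. Relatives and partners gave 3 rising from E13 to P0, and 4 rising and 9 falling without E11. Imprint maintenance genes gave 0 rising from E13 to P0, where limma left Dnmt3a at adjusted p = 0.0799, and 1 rising and 10 falling without E11. The slope of Dlk1 minus Meg3 lay between -0.49 and -0.17 with 1 array left out, and it was -0.23 from E13 to P0. Slopes without a call that changed sign were those of Cdkn1c (0.15 from E13 to P0, 0.083 without E11, rho 0.13 by rank), Peg3 (0.0084 without E11, 0.029 without P0) and Ndn (-0.039 from E13 to P0, -0.010 without E11). With 1 array left out they lay between -0.052 and 0.083, between -0.032 and 0.029, and between -0.010 and 0.057 in that order. The causes were not tested. No paired analysis was possible because each age had 1 array. The planned test of H19 against Igf2, and pairs with H19, were not run, since H19 had no probe set of its own, and Dlk1 had no probe set past the filter to average. Readings under log2 5 limit what can be said of Dlk1.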

Other observations

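Genes that keep DNA methylation at imprinted regions, or that copy and lay down methylation in general, mostly fell over the same ages. Of 20 listed, 15 were tested, and 10 fell, 1 rose and 4 did not pass, against 21.9% of all genes that fell and 25.2% that rose. The median slope was -0.11, against 0.0020 for all genes tested. The steepest falls were those of Hells, a chromatin remodeller needed for methylation (-0.44 ± 0.029, adjusted p = 5.98e-06, limma), Uhrf1, which brings Dnmt1 to newly copied DNA (-0.41 ± 0.035, adjusted p = 1.92e-05), and the methyltransferase Dnmt3b (-0.29 ± 0.047, adjusted p = 7.74e-04). Hells read 11.44, 10.75, 9.87, 10.02, 9.35, 9.27, 8.67, 8.05 and 7.60 from E11 to P0, with P0 the lowest array. The 1 gene that rose was the methyltransferase Dnmt3a (0.12 ± 0.025, adjusted p = 0.00235), which read 11.26 at P0, against 10.19 at E11, and its call ended from E13 to P0 (adjusted p = 0.0799). Over E13 to P0, 10 of the 15 fell, against 11.2% of all genes. Zfp57, a factor that protects imprints in the early embryo, was under log2 5 on every array. Of the 4 that did not pass, Zfp445 read 12.81 at E11 and 12.58 at P0 (slope 0.0077, adjusted p = 0.796, limma). The others were Arid4a (0.050, adjusted p = 0.356), Ehmt2 (-0.037, adjusted p = 0.227) and Smchd1 (-0.10, adjusted p = 0.0501). Smchd1 passed without E12, E13, E15, E16 or E17 (lowest adjusted p = 0.0327). All 13 tested cell cycle markers fell on the same arrays, and the part of dividing cells in these falls was not tested.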
